A study of Homo sapiens with 6 samples.

Results

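The minichromosome maintenance (MCM) family was read in the RNA-Sequence data of MDA-MB-231 shBry and shNC cells. Its members were taken by symbol: the genes MCM2, MCM3, MCM4, MCM5, MCM6, MCM7, MCM8, MCM9, MCM10 and MCMBP, which are 10 of the 54259 gene symbols in the count table. All 10 had enough counts to be tested, and 15277 genes were tested in all. MDA-MB-231 is an established cell line from a human breast cancer. The shBry group has a short hairpin RNA that targets the transcription factor brachyury, and the shNC group has a control hairpin, with 3 libraries each. No other treatment, dose or time is given for either group. The sources used here do not say which hairpin was used, whether the cells of a group were 1 clone, or whether the libraries came from separate cultures, so that p-values measure the spread between these libraries, which may be technical.

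Each library held between 19319411 and 22985371 counts, and the differences between replicates exceeded counting noise. Brachyury, listed under its older symbol T, had 0 counts in each of the 6 libraries, so the knockdown could not be checked. The smallest library allows up to 0.155 CPM (counts scaled to the size of the library) of T (3 counts, counting error only). The paper describes brachyury as overexpressed in MDA-MB-231 cells, which these counts do not show. The design text of the series names pericardial RNA, while the sample labels name MDA-MB-231. Of 6 genes known to be high in this line (VIM, CD44, EGFR, AXL, CAV1 and MSN) all 6 were above 1 CPM in every library. The lowest value was 61.1 CPM, for EGFR. These genes differed between the groups in both directions. CAV1 had 79.7 to 95.2 CPM in shBry and 176 to 211 in shNC, while CD44 had 609 to 663 and 481 to 521. Of 6 genes known to be low in it (ESR1, PGR, CDH1, EPCAM, KRT19 and GATA3), GATA3 was above 1 CPM in every library, and the 6 summed to between 16.5 and 19.1 CPM in shBry and between 12 and 15.3 CPM in shNC. EPCAM, an epithelial surface gene, reached 4.94 CPM in shBry and 1.89 CPM in shNC. KRT19 went the other way, with at most 0.481 CPM in shBry and 1.74 CPM in shNC. CDH1 was at most 0.0921 CPM in any library. Of 6 cardiac muscle markers, 4 were at 0 in every library and the summed level was at most 0.305 CPM. Of 6 leukocyte markers, 3 were at 0 in every library, with a summed level of at most 0.23 CPM. The 6 mesothelial markers summed to between 50.7 and 55.5 CPM in shBry and between 40.1 and 42.7 CPM in shNC, most of it from MSLN. Of these 6, 2 were above 1 CPM in every library, MSLN and LRRN4 (3.1 to 8.05 CPM), while PRG4 was at 0 in every library. CALB2 had 11.3 CPM in shNC replicate 3 and at most 1.38 CPM in any other library. The part of these marker differences between the groups in the results was not tested. The 6 fibroblast markers summed to between 20 and 24.7 CPM over both groups, most of it from COL1A1.

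MCM2 to MCM7 encode the subunits of a ring-shaped complex that holds 1 copy of each and forms the motor of the replicative DNA helicase. The ring is loaded on DNA at replication origins in G1 phase and is switched on in S phase, when it joins CDC45 and the GINS proteins. MCM8 and MCM9 encode a related helicase pair that acts in homologous recombination. MCM10 encodes a protein that binds the assembled helicase and helps to start replication, and MCMBP encodes a binding protein of MCM subunits. Genes of the 6 subunits are known targets of E2F transcription factors in proliferating cells.

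The members lie apart in the genome, on GRCh38 as annotated in GENCODE 29. MCM2 lies on chromosome 3 from 127598223 to 127622436, and MCM3 on chromosome 6 from 52264009 to 52284881. MCM4 lies on chromosome 8, and MCM5 on chromosome 22 from 35400063 to 35425430. MCM6 lies on chromosome 2 from 135839626 to 135876426, and MCM7 on chromosome 7 from 100092728 to 100101940. MCM8 lies on chromosome 20 from 5950652 to 5998977, and MCM9 on chromosome 6 from 118813442 to 118935162. MCM10 and MCMBP both lie on chromosome 10, the first from 13161554 to 13211104 and the second from 119829404 to 119892556.

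Little of the members' transcribed sequence is shared with other genes, since at most 1.41% of the stretches of 50 bases in a member's transcripts occurred elsewhere (MCM4). Exons of other genes cover 23.6% of the exon bases of MCM2, mostly the antisense gene AC023593.1, and 8.94% of those of MCM7, all from AP4M1 on the opposite strand. For MCM9 this share was 1.9%, and for the other 7 members it was 0. The sources do not say whether reads were counted by strand, so reads of overlapping exons could have been lost or shared for MCM2 and MCM7.

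Promoter sequences are shown for the hexamer genes MCM2, MCM3, MCM6 and MCM7 from RefSeq's table (GRCh38.p14), because all of them were called lower, and for MCMBP, which was not called. For MCM7 and MCMBP, which have several start sites in the table, the start with most matches is shown. Each runs 5′ to 3′ on the strand of the gene from 190 bases before the start site to 20 bases after it. Capitals mark the letters of an E2F site, searched as TTTGGCGC, TTTCCCGC, TTTGGCGG or TTTCGCGC on both strands, and capitals that run on for 12 letters are 2 sites that overlap on opposite strands.
MCM2, chr3:127598221-127598430, plus strand: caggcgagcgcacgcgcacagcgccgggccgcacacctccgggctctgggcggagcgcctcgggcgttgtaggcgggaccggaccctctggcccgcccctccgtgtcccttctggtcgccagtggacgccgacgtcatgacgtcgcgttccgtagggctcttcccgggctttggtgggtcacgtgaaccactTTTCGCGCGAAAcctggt
MCM3, chr6:52284723-52284932, minus strand: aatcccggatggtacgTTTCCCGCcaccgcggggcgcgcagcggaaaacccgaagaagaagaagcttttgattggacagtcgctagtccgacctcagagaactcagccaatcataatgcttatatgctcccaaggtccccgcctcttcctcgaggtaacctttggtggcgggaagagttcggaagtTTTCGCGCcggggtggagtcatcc
MCM6, chr2:135876424-135876633, minus strand: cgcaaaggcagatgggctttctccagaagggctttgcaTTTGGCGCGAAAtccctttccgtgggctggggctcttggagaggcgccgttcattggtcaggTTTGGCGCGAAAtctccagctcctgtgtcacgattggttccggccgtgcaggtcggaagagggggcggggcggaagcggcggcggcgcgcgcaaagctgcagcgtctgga
MCM7, chr7:100101378-100101587, minus strand: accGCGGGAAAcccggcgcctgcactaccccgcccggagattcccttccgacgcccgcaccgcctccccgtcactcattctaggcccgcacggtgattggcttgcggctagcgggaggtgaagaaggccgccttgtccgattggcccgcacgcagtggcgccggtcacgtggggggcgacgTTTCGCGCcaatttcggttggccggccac
MCMBP, chr10:119872824-119873033, minus strand: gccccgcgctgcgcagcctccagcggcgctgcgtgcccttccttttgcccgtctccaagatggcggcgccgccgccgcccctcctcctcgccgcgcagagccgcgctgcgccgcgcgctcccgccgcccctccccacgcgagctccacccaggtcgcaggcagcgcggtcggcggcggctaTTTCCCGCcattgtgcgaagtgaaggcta

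Windows of 300 bases around the start were searched (250 before and 50 after). Of the 8 members with a promoter in the table, 7 held at least 1 of these E2F letters. So did 3.35% of all 35116 windows, and 4.98% of the 15282 windows of tested genes. Of the 11 member windows, 7 held a match, and MCM9 was the member without one. MCM6 held 4 matches, which are 2 copies of the 12 letters TTTGGCGCGAAA, each made of 2 overlapping matches. No other window of the 35116 held 4 matches, and 4 windows held the 12 letters at all. MCM2, MCM3 and MCM7 held 2 matches each in 1 window, which 0.151% of all windows reached. MCM8 and MCM10 held 1 match each, and MCMBP held 1 match in 1 of its 2 windows. Both MCMBP windows lie inside the gene as GENCODE 29 draws it, downstream of its outermost start. The letters CCAAT were found in 8 of the 11 member windows, against 34.6% of all windows. The E-box CACGTG was found in 3 windows, those of MCM2, MCM7 and MCM8, against 7.26% of all windows and 9.23% of tested genes' windows. The letters TCACACCT of a T-box site were found in none of the 11 windows, against 0.98% of all and 0.746% of tested genes' windows. Neither were the letters TTTGAA found, against 15.2% and 10.4%. The T-box letters are so rare that most sets of 11 windows would hold none, so their absence here says little. The GC-box GGGCGG was found in 9 of the 11 windows, against 45% and 65.2%. A match is a description of the letters, and MCM4 and MCM5 have no window in the table.

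The central comparison asked whether RNA of the MCM genes differed between shBry and shNC cells. All 6 subunit genes of the hexamer were lower in shBry, and so were MCM8 and MCM10, whereas MCM9 and MCMBP were not called. A gene was called at a Benjamini-Hochberg adjusted p below 0.05 in edgeR's quasi-likelihood test, adjusted over all tested genes, together with a fold change above 1.5. Of the 10 members, 8 were called lower and 0 higher, while 15.2% of all tested genes were called lower and 17.1% higher (32.4% in either direction). The 8 members that were called had 3 shBry values all below the 3 shNC values, as had 28.9% of all tested genes (59.5% did not overlap in either direction). The median log2 fold change of the 10 members was -1.22, and that of all tested genes was 0.03. In bulk RNA, fewer cells that express these genes and less RNA of these genes per cell cannot be told apart.

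**Figure D1:**
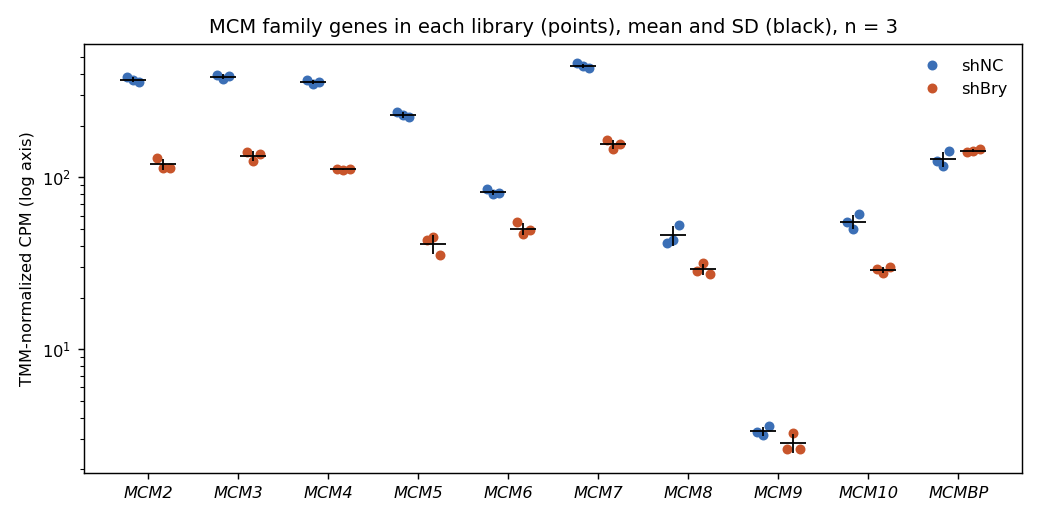
TMM-normalized CPM (log axis) of the 10 MCM family genes in each of the 3 shNC (blue) and 3 shBry (orange) libraries, with the mean and SD in black. The shBry points lie below all shNC points for MCM2 to MCM8 and MCM10, and the groups overlap for MCM9 and MCMBP.

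MCM5 changed most. It had 241, 230 and 224 TMM-normalized CPM in shNC replicates 1, 2 and 3, and 43.1, 45.1 and 35.4 CPM in shBry replicates 1, 2 and 3. Every shBry library was thus far below every shNC library. The means were 232 ± 9.09 and 41.2 ± 5.12 CPM (SD, n = 3), and the log2 fold change was -2.49 ± 0.10 (SE, edgeR quasi-likelihood test, adjusted p = 1.3e-10). Among all tested genes, 57 (0.373%) had a lower log2 fold change.

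MCM2, MCM3, MCM4 and MCM7 fell by about the same factor, to between 31% and 35% of the shNC level. MCM4 had 368, 350 and 361 CPM in shNC, and 112, 111 and 112 CPM in shBry. The 3 shBry libraries almost coincided, and the log2 fold change was -1.69 ± 0.07 (SE, edgeR quasi-likelihood test, adjusted p = 4.1e-10). MCM2, whose product carries long tails that bind histones, had 383, 369 and 360 CPM in shNC, and 130, 114 and 114 CPM in shBry. Its log2 fold change was -1.64 ± 0.08 (SE, same edgeR test, adjusted p = 1.6e-09). The groups were well apart in both genes, with shBry replicate 1 the highest of its group for MCM2.
MCM3 had 396, 373 and 388 CPM in shNC, and 140, 124 and 136 CPM in shBry, a log2 fold change of -1.53 ± 0.08 (SE, same edgeR test, adjusted p = 2.1e-09). MCM7, which like the other subunits is part of the ring's motor, had 460, 443 and 435 CPM in shNC. In shBry it had 165, 146 and 157 CPM. Its log2 fold change was -1.51 ± 0.08 (SE, same edgeR test, adjusted p = 2.2e-09). For both genes the groups were far apart, and shBry replicate 2 had the lowest value.

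MCM6 fell least among the 6 subunits. It had 85.4, 79.8 and 80.9 CPM in shNC, and 55, 46.7 and 49.5 CPM in shBry. The groups did not overlap, but shBry kept 61.4% of the shNC level. The log2 fold change was -0.71 ± 0.09 (SE, same edgeR test, adjusted p = 1.5e-05), and 2060 genes (13.5%) had a lower one. MCM6 is also the gene whose promoter, shown above, carries both copies of the 12 letters. A link between these letters and the size of the fall was not tested, and MCM4 and MCM5 have no window.

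**Figure D2:**
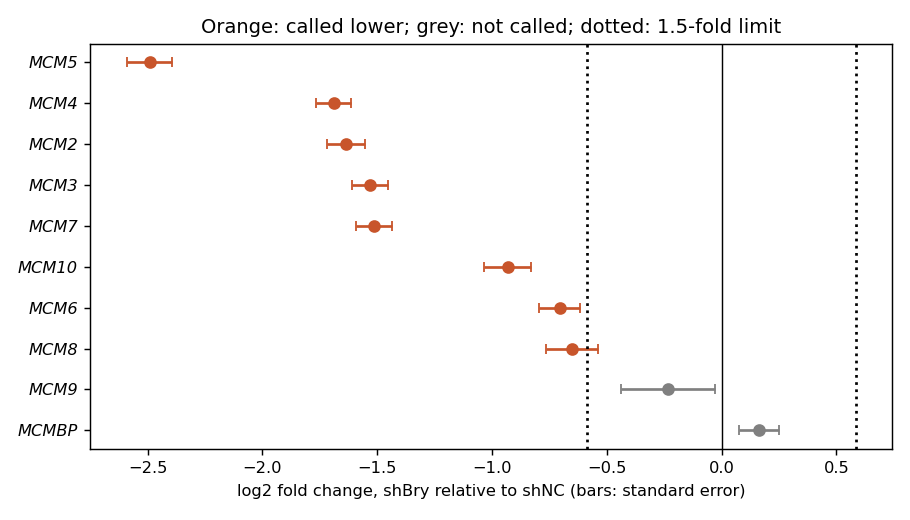
log2 fold change of each member, shBry relative to shNC, with its standard error; orange marks genes called lower, grey genes not called, and the dotted lines the fold change limit of 1.5. MCM5 lies at -2.49, 4 subunits lie between -1.69 and -1.51, and MCM6 lies close to the limit at -0.71.

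Among the members outside the hexamer, MCM10 had 54.8, 50.2 and 61 CPM in shNC, and 29.2, 27.7 and 30.1 CPM in shBry. It fell to 52.4% of the shNC level, a log2 fold change of -0.93 ± 0.10 (SE, same edgeR test, adjusted p = 3.4e-06). MCM8 had 41.7, 43.4 and 53 CPM in shNC, and 28.5, 31.8 and 27.5 CPM in shBry, a log2 fold change of -0.65 ± 0.11 (SE, same edgeR test, adjusted p = 0.00026). Its groups did not overlap, but shNC replicate 3 was well above the other shNC libraries. Without that library the log2 fold change of MCM8 was -0.56 (same edgeR test, adjusted p = 0.00107), which is under the fold change limit, so the call of MCM8 rested on it.
MCM9, the partner of MCM8, had the fewest counts of the members, with between 49 and 77 counts per library. It had 3.3, 3.17 and 3.56 CPM in shNC, and 2.64, 3.25 and 2.62 CPM in shBry. The groups overlapped through shBry replicate 2, and the log2 fold change of -0.23 ± 0.20 (SE, same edgeR test, adjusted p = 0.36) was not called. With so few counts, its standard error was the largest of the 10 members.
MCMBP had 124, 117 and 142 CPM in shNC, and 140, 142 and 146 CPM in shBry. The groups overlapped through shNC replicate 3. Its log2 fold change was 0.16 ± 0.09 (SE, same edgeR test, adjusted p = 0.13), and it was the only member with a value above 0. Without shNC replicate 3 the log2 fold change of MCMBP was 0.22 (same edgeR test, adjusted p = 0.0373). This was still under the fold change limit, so MCMBP was not called in that fit either.

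To compare levels between genes, CPM were divided by the length of the joined exons of the protein-coding transcripts, in kilobases (kb). In shNC, MCM7 had 119 ± 3.41 CPM per kb (SD, n = 3) and MCM3 had 115 ± 3.47, and their libraries overlapped. They were followed by MCM2 with 86.5 ± 2.7, MCM4 with 80.3 ± 2.03 and MCM5 with 63.8 ± 2.38 CPM per kb. MCM6 had 22 ± 0.794 CPM per kb, which was below every other subunit and below MCMBP, with 29.9 ± 3.02. MCM10 had 11.9 ± 1.17, MCM8 had 5.99 ± 0.792 and MCM9 had 0.524 ± 0.0311 CPM per kb. The 6 subunits of a ring with equal copies thus did not have equal values per kb in shNC. The annotation used for counting is not stated, so whether all exons of MCM6 were counted could not be checked.
In shBry, MCM7 (41.7 ± 2.55 CPM per kb) and MCM3 (39.6 ± 2.48) were again highest and overlapped. MCMBP came next with 33.5 ± 0.716 CPM per kb, above MCM2 with 27.8 ± 2.16 and MCM4 with 24.9 ± 0.129. MCM6 (13.5 ± 1.13) and MCM5 (11.3 ± 1.41) had traded places against shNC. With the longest coding transcript as the length, the order of the means was the same in both groups, MCM7 was above MCM3 without overlap in both groups, and in shBry the libraries of MCM6 and MCM5, and those of MCMBP and MCM2, overlapped.

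**Figure D3:**
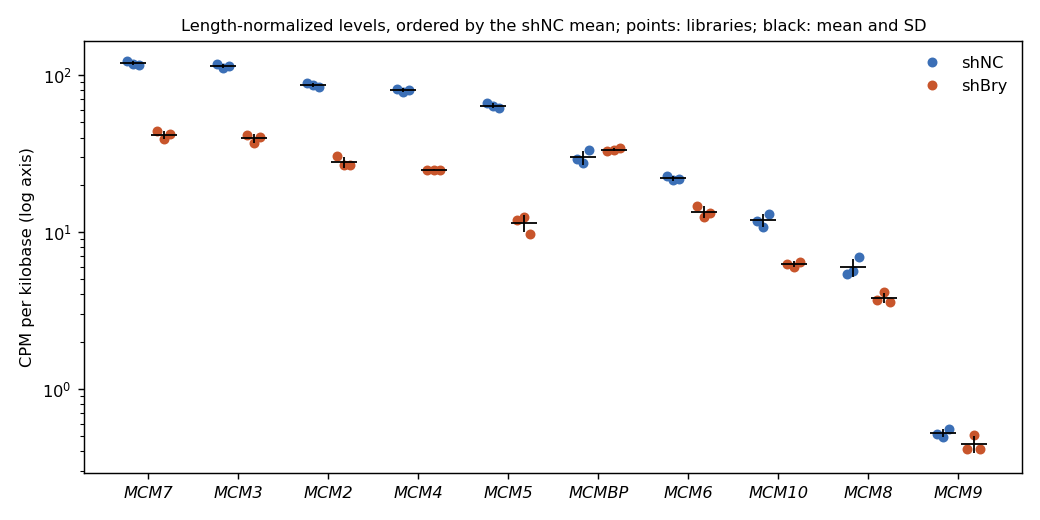
CPM per kb of exon (log axis) of the 10 members in each library, ordered by the mean in shNC (blue), with shBry in orange and the mean and SD in black. The hexamer genes other than MCM6 lie above MCMBP in shNC, and only MCM7 and MCM3 do so in shBry.

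The subunits were next compared with each other, by taking the log2 CPM of each gene minus the mean of the 6 in the same library, where any scaling of the library cancels. This mean includes the gene itself, so the differences of the 6 genes balance by construction. A shift of 1 gene displaces the others, and the 6 tests are not independent. The mean itself was 8.15, 8.08 and 8.08 in shNC replicates 1, 2 and 3, and 6.59, 6.47 and 6.47 in shBry, a difference of -1.60. The exact two-sided permutation test over libraries gave p = 0.1, the smallest p that 3 against 3 libraries allow.
MCM5 moved further than the mean of the 6. Its value relative to the mean was -0.24, -0.23 and -0.28 in shNC, and -1.16, -0.97 and -1.32 in shBry, a difference of -0.90 ± 0.09 (SE, limma, adjusted p = 1.1e-06). MCM6 moved less than the mean, with -1.74, -1.76 and -1.74 in shNC and -0.81, -0.93 and -0.83 in shBry, a difference of 0.89 ± 0.08 (SE, limma, adjusted p = 3.3e-07). The other subunits stayed nearer the mean, with differences of -0.04 for MCM2, 0.06 for MCM3, -0.09 for MCM4 and 0.08 for MCM7 (standard errors of at most 0.07, adjusted p of 0.53, 0.38, 0.21 and 0.24, limma). The groups did not overlap for MCM4, MCM5, MCM6 and MCM7, and overlapped for MCM2 and MCM3. The share of all tested genes without overlap on this measure was not computed, so these counts have no background. For comparison, 94.6% of all tested genes had an adjusted p below 0.05 in this test, because most genes did not move with the 6.
In counts, MCM5 made up between 12.1% and 12.5% of the reads of the 6 genes in shNC and between 5.88% and 7.68% in shBry. MCM6 made up between 4.33% and 4.42% in shNC and between 7.94% and 8.52% in shBry. All 6 together took between 0.184% and 0.194% of a shNC library and between 0.0594% and 0.0621% of a shBry library.

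**Figure D4:**
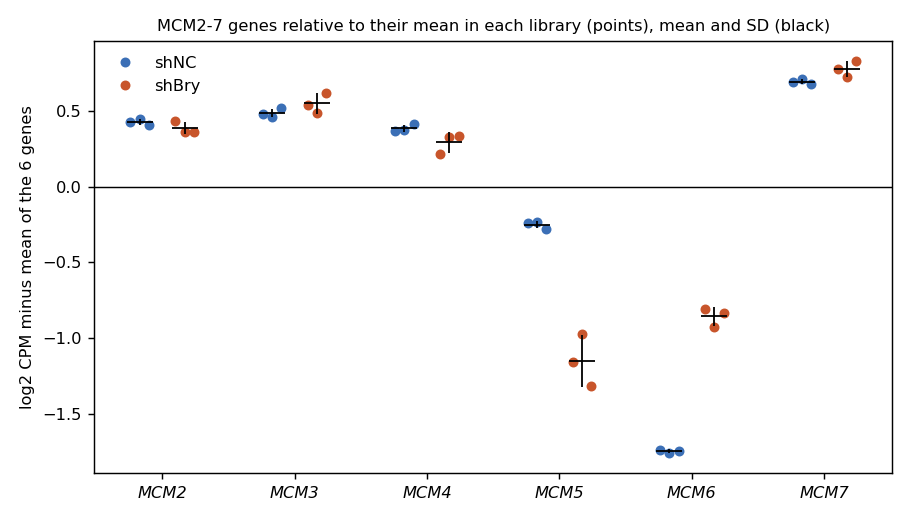
log2 CPM of each subunit gene minus the mean of the 6 genes in the same library, for shNC (blue) and shBry (orange), with the mean and SD in black. Relative to this mean, MCM5 and MCM6 shift in opposite directions, by -0.90 and 0.89, and the others shift by at most 0.09 either way. The shifts of the 6 genes balance by construction.

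Some members share their promoter region with a gene on the other strand, whose start lies within 1000 bases. There were 5 such pairs, and none of the 5 neighbours was called. Among all tested genes, 32.4% were called in either direction, so most genes were not called either. MCM2 and TPRA1 start 44 bases apart. TPRA1 had 57.7 ± 5.79 CPM in shNC and 76.1 ± 3.26 in shBry, a log2 fold change of 0.40 (edgeR quasi-likelihood test, adjusted p = 0.0025), against -1.64 for MCM2. MCM4 starts 2 bases from PRKDC, the gene of a DNA repair kinase. PRKDC had a log2 fold change of -0.09 ± 0.10 (SE, same edgeR test, adjusted p = 0.46), against -1.69 for MCM4. MCM8 starts 94 bases from TRMT6, a tRNA methyltransferase subunit gene, with a log2 fold change of 0.50 (same edgeR test, adjusted p = 0.0012) against -0.65 for MCM8. AP4M1, which starts 391 bases from MCM7, had -0.13 (same edgeR test, adjusted p = 0.4), and SEC23IP, which starts 155 bases from the outermost start of MCMBP (not the start shown above), had 0.24 (same edgeR test, adjusted p = 0.065). In the 3 pairs of MCM2, MCM4 and MCM7, the gene on one strand fell by a factor of 2.85 or more while its neighbour stayed within the fold change limit.
MCM7 also hosts 3 microRNA genes of its own strand in 1 stretch of its introns, from 100093560 to 100094074. The row of MIR25 had 35, 47 and 40 counts in shNC, and 20, 16 and 17 counts in shBry. It was called lower, with a log2 fold change of -1.23 ± 0.31 (SE, same edgeR test, adjusted p = 0.0038). MIR93 and MIR106B had at most 10 counts in any library and were not tested. RNA-Sequence reads of such rows can come from the unspliced host transcript, and mature microRNAs were not measured.

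The genes that load, activate, accompany and unload the MCM helicase were examined as 5 lists of 45 genes, all of which were tested. Of these, 22 were called lower and 1 higher, with a median log2 fold change of -0.50, beside the 15.2% called lower among all tested genes.
Helicase loading was mixed, with 4 of 9 genes called lower, 1 called higher and a median log2 fold change of 0.01. ORC1, the largest subunit of the origin recognition complex, had 28.5, 29.3 and 33.1 CPM in shNC, and 7.38, 5.9 and 7.4 CPM in shBry. This was a log2 fold change of -2.14 ± 0.14 (SE, same edgeR test, adjusted p = 1.6e-08). GMNN, the inhibitor of the loading factor CDT1, had -1.53, CDT1 itself had -0.89 and ORC3 had -0.62. ORC5 was higher in shBry, with 16 ± 1.25 CPM against 10.4 ± 2.27, and its log2 fold change was 0.62 ± 0.16 (SE, same edgeR test, adjusted p = 0.0046). CDC6, which loads the ring together with CDT1, had 85.4, 87.6 and 90.7 CPM in shNC, and 90.9, 80.7 and 93.4 CPM in shBry. Its groups overlapped, and the log2 fold change was 0.01 (same edgeR test, adjusted p = 0.96). ORC2, ORC4 and ORC6 had 0.39, 0.42 and 0.15 and missed the call.
Of the 13 helicase activation genes, 8 were called lower and 0 higher, with a median of -0.79. GINS2, a subunit of the GINS complex, had 104 ± 4.1 CPM in shNC and 28.1 ± 2.57 in shBry, with a log2 fold change of -1.88. RECQL4 had -1.52, GINS1 had -1.52, CDC45 had -1.26 and GINS4 had -0.87, while GINS3 had -0.33 and was not called. Subunits of GINS, which like the MCM ring holds 1 copy of each, thus had values between -1.88 and -0.33, though the differences between them were not tested. CDC7, the kinase that phosphorylates the ring, had -0.81. Its activator gene DBF4 had -0.18 and was not called, and the related DBF4B had -0.77. TICRR, MTBP and TOPBP1 were not called, with values between -0.31 and -0.26.
Of the 8 fork partner genes, 6 were called lower and 0 higher, with a median of -0.92. CHTF18, which helps to load the sliding clamp, had -1.17, TIMELESS had -1.12 and WDHD1 had -1.07. TIPIN, the partner of TIMELESS, had 0.23 and was not called.
Of the 8 helicase unloading genes, 2 were called lower, with a median of -0.21. UFD1L fell to 49.9% of the shNC level, and VCP, the segregase that extracts the ring from DNA, had a log2 fold change of -0.64, while TRAIP and LRR1, which belong to ubiquitin ligases that mark the ring, had -0.43 and 0.07 and were not called. Of the 7 genes around MCM8 and MCM9, 2 were called lower, among them MSH6, a mismatch repair gene, with -0.76. C17orf53, which encodes the factor that recruits MCM8 and MCM9, had -0.43, which is under the fold change limit.

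**Figure D5:**
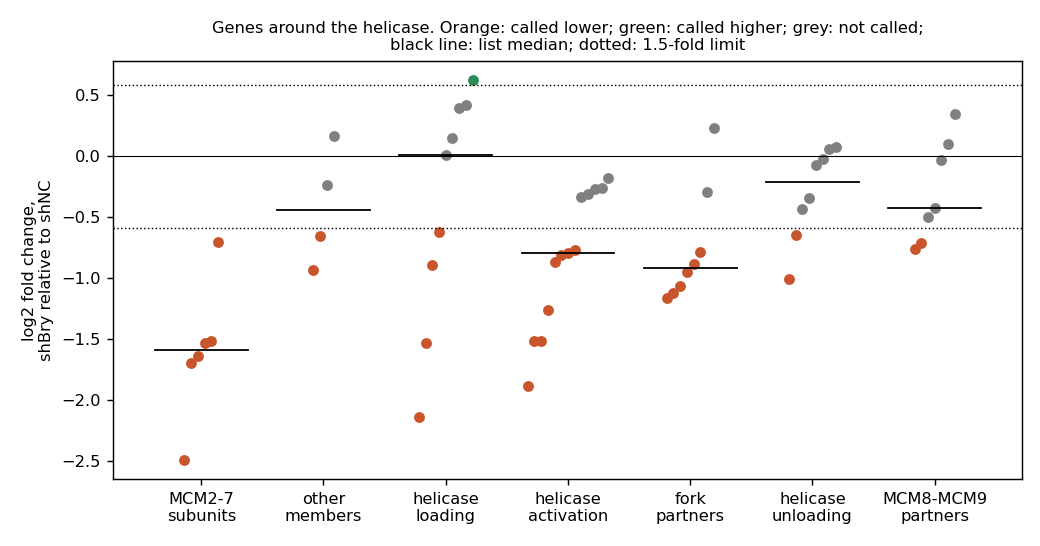
log2 fold changes, shBry relative to shNC, of the members and of the 5 pathway lists; each point is 1 gene, orange if called lower, green if called higher and grey if not called, with the list median in black and the fold change limit of 1.5 dotted. The subunit genes have the lowest median (-1.58), and helicase loading is the list with a gene called higher.

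The genes whose pattern over the 6 libraries was most like the mean of the 6 subunits were found by the root mean square distance between centred log2 CPM, among 9404 genes whose mean was 10 CPM or more. They were PKM, a glycolysis enzyme gene, at a distance of 0.027, PSMD3, a proteasome subunit gene, at 0.0447, EMP2 at 0.0448, TGM2 at 0.0465 and PASK at 0.0482. PKM had 4810, 4600 and 4410 CPM in shNC, and 1660, 1490 and 1520 CPM in shBry. MCM2 itself lay at 0.0332, so that 1 gene outside the family was nearer to the mean of the 6 than MCM2. Each of the 6 subunits is part of this mean, which shortens its distance, while genes outside the family are not. MCM5 and MCM6 lay at 0.461 and 0.447, with 949 and 883 genes nearer. This distance is a description over 6 libraries in 2 groups, and it mostly reflects the size of the fall.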

How the data were processed

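RNA of 3 MDA-MB-231 shBry and 3 shNC libraries was sequenced. The table that the authors deposited holds raw read counts per gene symbol and library, not normalized. HISAT2 2.0.4, HTSeq and GRCh38 are named in the submitters' processing notes, and the annotation and strand setting are not given in the sources used here. Members, lists and tests were chosen with earlier results of these data known, and the lists were written from general knowledge.

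Genes were filtered with filterByExpr (minimum count 10), scaled with TMM and compared in edgeR 4.0.16 (R 4.3.3) by its quasi-likelihood test, with Benjamini-Hochberg adjustment over 15277 genes. For the RNA-Sequence data, the paper states limits on p and fold change (1.5) and names no test. The 4945 genes called here, or 5136 with unadjusted p, are more than the paper reports. The reason for this difference was not tested. Standard errors were the log2 fold change divided by the square root of F. Changes relative to the MCM2-7 mean were tested with limma 3.58.1 (log2 CPM with prior count 2). In simulated counts for this comparison (15073 genes tested), 81 of 98 genes changed 2-fold and 99 of 99 changed 4-fold were recovered, and 3 unchanged genes were called. The simulation changed 200 genes besides the subunits, far fewer than were called in the data. Its noise followed the average trend over genes. The 3 calls are thus not the error rate of the real comparison.

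The alternatives were no TMM, DESeq2 1.42.0, limma-voom, other filters and call limits, prior count 0.5, limma without trend, the replicate block and each library left out. Named were all members, their neighbours and overlapping genes, hosted microRNAs, the 5 nearest profiles, and genes of the 5 lists, of which some single genes are not reported here. Promoters came from RefSeq (GRCh38.p14), with 8 of 10 members matched, and locations, lengths and distances between gene starts from GENCODE 29, with all 10 matched by symbol.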

Additional observations from a re-analysis of the deposited data

How the results depend on the processing

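The log2 fold changes of the 10 members kept their direction under each of the 12 alternatives tried for each, and their calls too, except that of MCM8, whose log2 fold change was -0.56 without shNC replicate 3. MCM5 lay between -2.58 and -2.39 and MCM6 between -0.77 and -0.67. All 6 subunits were called lower under every alternative test, filter, scaling and left-out library. With a fold change limit of 2, 5 of the 6 subunits (not MCM6), 0 of the 4 other members, 2 loading, 4 activation, 3 fork partner, 1 unloading and 0 MCM8-MCM9 partner genes were called lower, and 2297 of all genes were called, 1042 of them lower. With no fold change limit, 8139 genes were called, 3860 of them lower, and 4 unloading and 4 MCM8-MCM9 partner genes were lower.
With each library left out, between 1 and 2 other members, 3 and 4 loading genes, 2 and 3 MCM8-MCM9 partner genes, and 4587 and 5025 of all genes were called (lower, between 2243 and 2497). The difference of MCM5 from the MCM2-7 mean lay between -0.99 and -0.82 in those fits, and that of MCM6 between 0.87 and 0.93.
The replicate numbers showed no clear pairing of the libraries. Correlations of deviations were 0.18, -0.08 and -0.03 for same-numbered libraries, and between -0.22 and 0.23 for differently numbered libraries. So few libraries cannot settle whether same-numbered libraries were handled together. With the replicate block, 6 subunits and 2 other members were called lower, and 4914 of all genes were called. Depth limits MCM9, with between 49 and 77 counts per library. Lengths per kb depend on which transcripts the cells use, which counts per gene do not show.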

Other observations

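Genes that share the symbol stem but are not MCM proteins were read after their values were seen. MCM3AP, which encodes a nuclear export factor named for its binding to MCM3, had 95 ± 3.12 CPM in shNC and 95.1 ± 2.18 in shBry (SD, n = 3), a log2 fold change of 0.00 ± 0.08 (SE, edgeR quasi-likelihood test, adjusted p = 0.99), where MCM3 had -1.53. The row of MCMDC2, an MCM-domain gene, had at most 3 counts in each library, and MCM8-AS1 had at most 2, so no change in them was detectable at this depth.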
